A study of Mus musculus with 24 samples.

Results

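The genes described here encode the leukocyte integrins and the selectin ligand that let a blood cell hold on to a vessel wall: the alpha subunits Itgax, Itgam, Itgal, Itga4 and Itga6, the beta subunits Itgb1, Itgb2 and Itgb7, and Selplg. They were taken by name after the Ensembl identifiers of the count tables had been matched to mouse gene symbols. All 9 of 9 were found among the 25746 genes counted, and all 9 passed the filter on low counts that left 11885 genes for testing.

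The RNA came from eosinophils grown in culture from the bone marrow of C57BL/6 mice, and 24 libraries in 8 groups of 3 were counted. Every culture was started with 100 ng/ml of stem cell factor and 100 ng/ml of FLT3 ligand until day 4, and interleukin-5 (IL-5, the growth factor of eosinophils) followed at 10 ng/ml, so that IL-5 was present in all groups, the untreated ones included. At day 13 dead cells were removed, with no sort on a surface marker named in the labels, and the cells spent the night with or without the cytokines under study. WT (wild-type) cells were left untreated or were given 20 ng/ml of GM-CSF (granulocyte-macrophage colony-stimulating factor), interleukin-10 (IL-10, at a dose the labels do not give), or both. Cells of 2 mutant genotypes were left untreated or given GM-CSF: those labelled CSF2ra-/-, written Csf2ra-/- here after the gene for the GM-CSF-binding chain of the receptor, and those labelled Irf5-/-, after the gene for an interferon regulatory factor. The labels say nothing of how either allele was made. The labels give neither the age or sex of the mice nor whether the 3 libraries of a group came from separate animals or from wells of 1 culture, so p-values measure the spread between these libraries, which may be technical.

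An integrin is a pair of 1 alpha and 1 beta chain. Itgb2 pairs with Itgal (giving LFA-1), Itgam (giving Mac-1) or Itgax (known as CD11c), and these pairs bind ICAM proteins or, for Itgam and Itgax, also complement fragments and fibrinogen. Itga4 pairs with Itgb1 (VLA-4) or Itgb7, which bind the vessel proteins VCAM-1 and MAdCAM-1 and bring eosinophils into inflamed tissue and the gut, while Itga6 with Itgb1 is a receptor for laminin of the basement membrane. Selplg encodes PSGL-1, the ligand on which leukocytes roll over P-selectin before integrins arrest them.

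Of the 9 genes, 1 was called for GM-CSF: Itgax was higher with the cytokine in WT cells, with or without IL-10, and in the cells labelled Irf5-/-, and it was lower in Csf2ra-/- than in WT cells whether or not GM-CSF was added. Itga6 was lower in untreated Csf2ra-/- than in untreated WT cells. Itgam, Itgal, Itgb2, Itga4, Itgb1, Itgb7 and Selplg were called in none of 13 comparisons of 2 groups or of 2 responses, with edgeR on all 24 libraries.

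Itgax lies on chromosome 7 between 128129547 and 128150657 (GRCm38), on the same strand as Itgam (128062640 to 128118491), whose annotated end is 11056 bp before the start of Itgax. Itgax was called for GM-CSF and its neighbour was not, and for this reason the 250 bases before each RefSeq start are given. Both are read 5′ to 3′ on the plus strand of GRCm38.p6, and capitals mark the matches to the motifs searched on both strands. These were the ETS-type core GAGGAA, the STAT-type palindrome TTCNNNGAA, the GC box GGGCGG, and the TATA box in its form TATAAA. An AP-1 site was taken as TGA, then any of the bases, then TCA.
Itgax, chr7:128129300-128129549: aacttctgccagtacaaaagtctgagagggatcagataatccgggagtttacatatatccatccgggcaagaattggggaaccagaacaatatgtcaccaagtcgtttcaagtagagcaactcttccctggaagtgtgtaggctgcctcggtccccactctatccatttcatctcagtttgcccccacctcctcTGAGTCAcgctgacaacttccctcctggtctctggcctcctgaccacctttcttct
Itgam, chr7:128062390-128062639: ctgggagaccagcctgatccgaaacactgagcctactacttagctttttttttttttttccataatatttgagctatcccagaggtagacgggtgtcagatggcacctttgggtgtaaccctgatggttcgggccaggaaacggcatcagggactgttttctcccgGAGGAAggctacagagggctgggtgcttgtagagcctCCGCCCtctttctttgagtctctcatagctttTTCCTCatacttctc
The Itgax window held 1 match, the AP-1 site, from 56 to 50 bases before the start. The Itgam window held GAGGAA at 84 to 79 and at 15 to 10 bases before the start and GGGCGG at 47 to 42. Neither window held TTCNNNGAA or TATAAA. Among 32851 promoter windows of the same length, 6.75% held the AP-1 site, 23.3% GAGGAA, 32.7% GGGCGG, 7.02% TTCNNNGAA and 12.4% TATAAA, and no overlapping matches of different motifs were found in these 2 windows. A match describes letters and says nothing about a bound factor, and promoters in the RefSeq table were found for 5 of the 9 genes.

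Some facts of the whole series bear on all values. Total counts ran from 6222979 to 18709153 per library. Markers of the labelled cell type were abundant: 10 eosinophil genes such as Prg2 and Epx summed to between 74205 and 112315 CPM (counts scaled to library size). Csf2ra itself read 28.5 to 39.8 CPM in the Csf2ra-/- libraries and 41.8 to 83.8 CPM in the others, so transcript from the locus remained. Irf5 went against its label: it read 1394 to 1999 CPM in the 6 libraries labelled Irf5-/- and 28.3 to 94.3 CPM in the other 18, and whether reads come from a disrupted transcript cannot be told from counts per gene. Libraries also differed in the levels of genes with long transcripts relative to genes with short ones. Coverage along transcripts was not measured, and the cause was not tested. The difference is expressed below as the median deviation of genes with long transcripts (6823 bp or more) minus that of genes with short ones (1473 bp or less). This log2 length measure ran from -0.78 and -0.49 in replicates 1 and 3 of untreated Csf2ra-/- cells, and -0.40 in replicate 2 of the untreated cells labelled Irf5-/-, to 0.35 in replicate 2 of untreated Csf2ra-/- cells. The summed level of 4 Y-linked genes differed within groups and between genotypes: it was 148 to 185 CPM in all 6 Csf2ra-/- libraries, while each WT group and each group labelled Irf5-/- held libraries at 163 to 182 CPM beside libraries at 12.1 to 60.9 CPM, so the libraries of those 6 groups were not all wells of 1 culture. In bulk RNA, fewer cells of a type and less RNA per cell cannot be told apart.

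**Figure D1:**
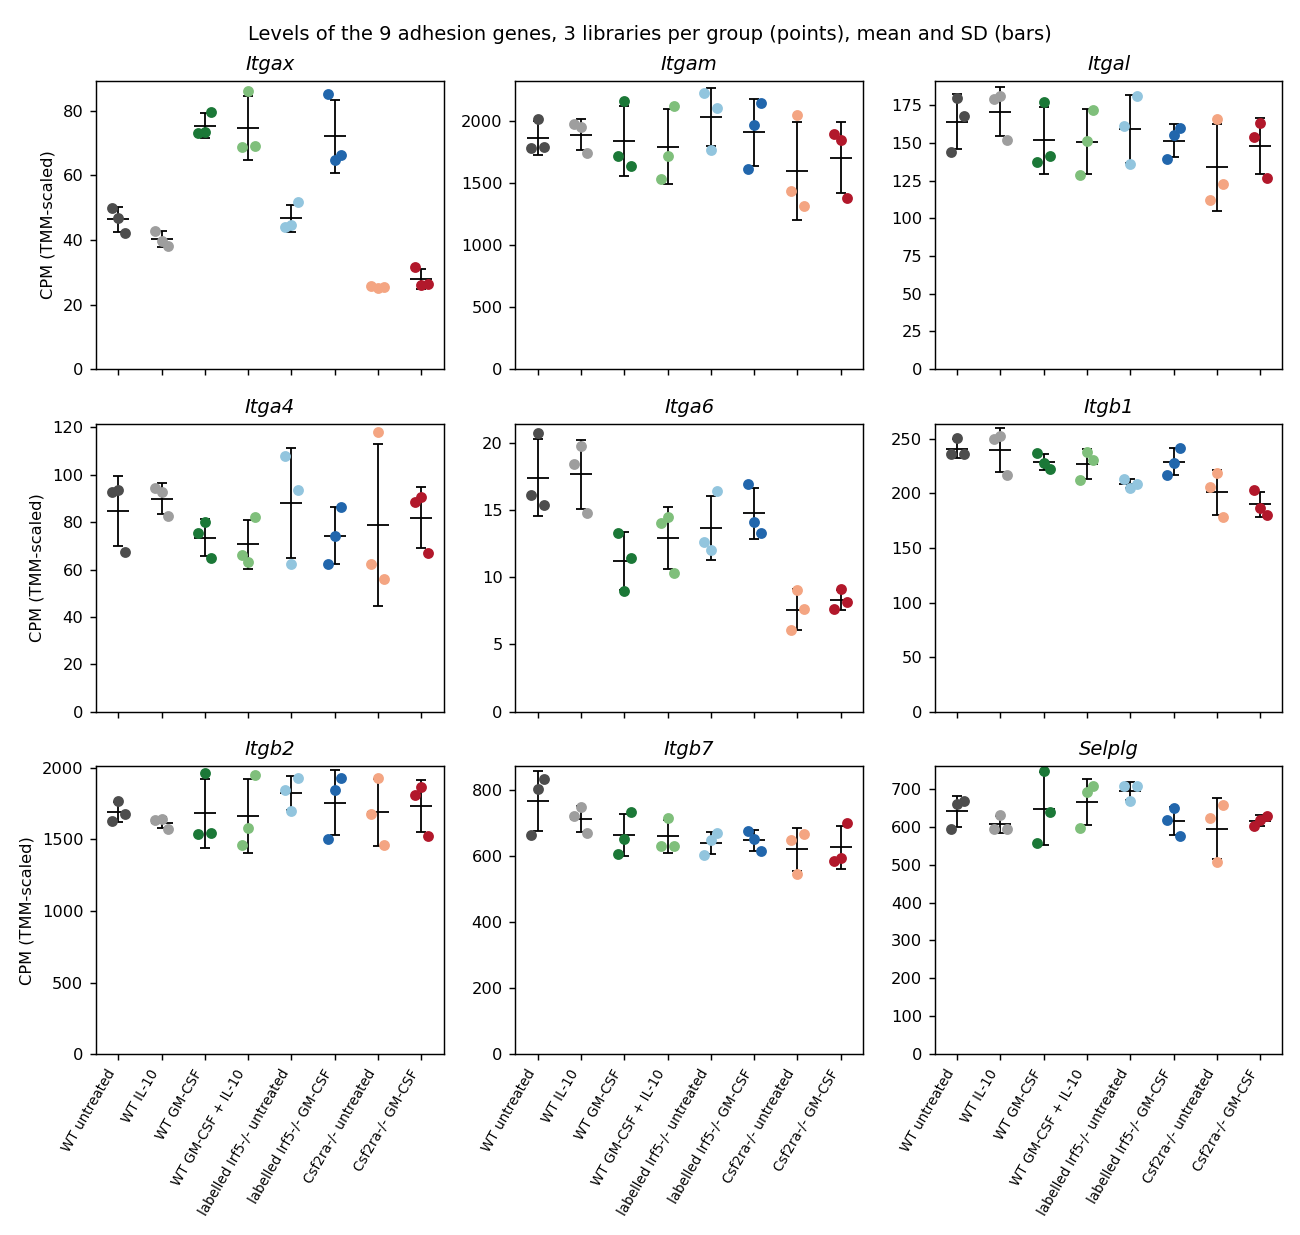
Level of each gene in CPM scaled by TMM factors (y axis, linear and starting at 0) in the 8 groups (x axis); points are libraries, the long tick is the mean and the bars are the SD of 3 libraries. Itgax lies at 64.8 to 86.1 CPM in the 3 GM-CSF groups other than Csf2ra-/-, at 38.0 to 51.6 in the 3 groups other than Csf2ra-/- without it and at 25.2 to 31.5 in the Csf2ra-/- groups, Itga6 has its lowest means in the Csf2ra-/- groups, and each group of the other 7 genes overlaps with its neighbours in the order of the means.

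Scaled to length, the beta-2 pair led. In untreated WT cells, Itgb2 stood at 554 CPM per kb of exon and its partner Itgam at 371, followed by Itgb7 at 277 and Selplg at 150. Itgb1 (59.0 CPM per kb) and Itgal (25.0) came next, and Itgax (9.64), Itga4 (6.06) and Itga6 (1.93) closed the order. Dividing by the longest annotated transcript in place of all exons left this order as it was. Both lengths include exon that Itgam shares with another gene model (described below), so its place in this order and the shares that follow are uncertain. Itgax was thus a minor alpha chain in these cells: among the length-scaled partners of Itgb2 it made up 2.39% ± 0.256 (SD, n = 3) in untreated WT cells, against 91.4% ± 0.249 for Itgam and 6.16% ± 0.456 for Itgal. With GM-CSF its share was 3.94% ± 0.665 in WT cells, 4.0% ± 0.806 with IL-10 as well and 3.68% ± 1.08 in the cells labelled Irf5-/-, while it was 1.59% ± 0.349 and 1.6% ± 0.243 in untreated and GM-CSF-treated Csf2ra-/- cells. Itgad, the remaining partner, was near 0 in every library (at most 0.508 CPM). Of the length-scaled beta chains Itgb1, Itgb2 and Itgb7 in untreated WT cells, Itgb2 made up 62.3% ± 1.83, Itgb7 31.0% ± 2.14 and Itgb1 6.65% ± 0.306.

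**Figure D2:**
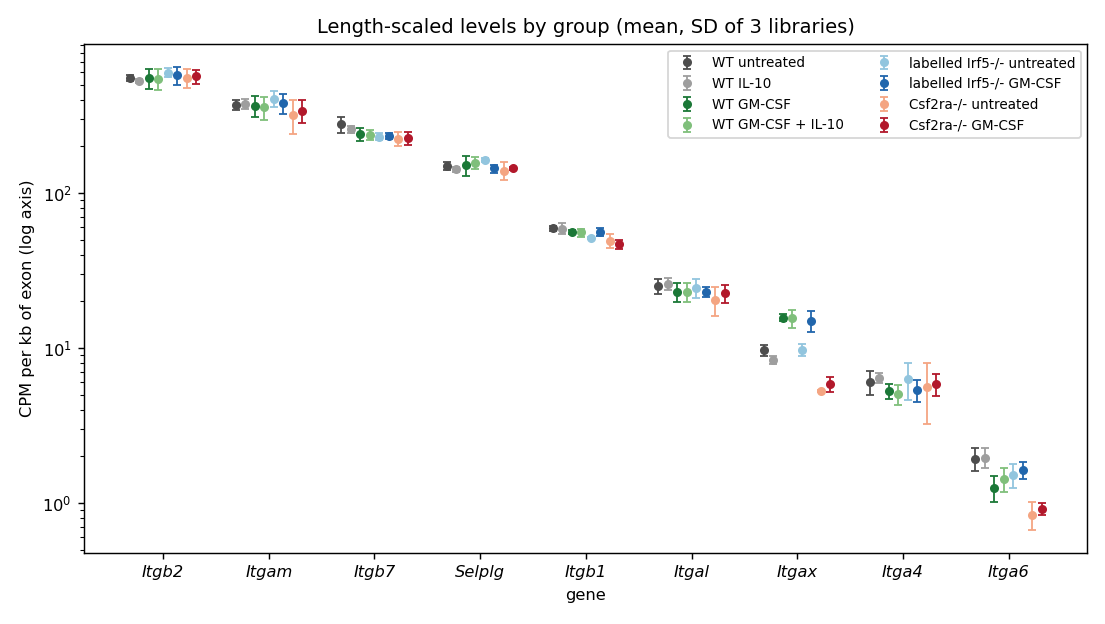
Mean level per kb of exon (y axis, log scale) of each gene (x axis) in the 8 groups (colours); bars are the SD of 3 libraries. Itgb2 and Itgam lie highest and Itga6 lowest in every group, and Itgax is the gene with the widest separation between groups.

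The level of Itgax in untreated WT cells was 49.9, 46.9 and 42.2 CPM. With GM-CSF it was 73.2, 73.3 and 79.7 CPM, so every treated library lay above every untreated one. The log2 difference was 0.70 ± 0.11 (SE), a 1.63-fold higher level, with adjusted p = 0.00179 (edgeR quasi-likelihood F-test, Benjamini-Hochberg over all genes tested, called where under 0.05; the same test gives all adjusted p-values here). Itgax was the only 1 of the 9 genes called in this comparison, in which 0.555% of all genes were called. The largest of the other 8 differences was that of Itga6, at -0.63 ± 0.18 (adjusted p = 0.192), with 16.1, 20.7 and 15.4 CPM untreated and 13.3, 8.99 and 11.4 CPM treated. The remaining 7 had log2 differences from -0.21 (Itgb7, 95% interval -0.41 to 0) to 0.02 (Selplg, -0.19 to 0.22), and the median over the 9 genes was -0.07, against -0.01 over all genes.

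In the presence of IL-10, GM-CSF gave a similar picture. With IL-10 alone Itgax read 42.8, 39.8 and 38.0 CPM, and with both cytokines 68.8, 86.1 and 69.2 CPM. The groups did not overlap, and the log2 difference was 0.89 ± 0.12 (adjusted p = 9.51e-05). It was again the single member called, where 0.858% of all genes were called. Itga6 differed by -0.46 ± 0.18 (adjusted p = 0.383) and Itga4, the chain of VLA-4, by -0.35 ± 0.23 (adjusted p = 0.685). The difference between the responses of Itgax with and without IL-10 was 0.19 ± 0.16 on the log2 scale (95% interval -0.13 to 0.51, adjusted p = 1). No member was called in that test and none had an unadjusted p under 0.05. Of all genes, 0% were called by edgeR in this test (149 had an unadjusted p under 0.05), 0 by limma-voom and 1 by DESeq2.

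None of the 9 genes was called for IL-10. Against untreated WT cells the log2 difference of Itgax was -0.20 ± 0.12 (95% interval -0.43 to 0.02), and against GM-CSF alone it was -0.01 ± 0.11 (-0.23 to 0.21). No member had an unadjusted p under 0.05 in either comparison, and none was called by DESeq2 or limma-voom. Calls over all genes were equally few, at 0.0505% without GM-CSF and 0.0505% with it. For Itgb2, the shared beta chain, the 95% interval of the IL-10 difference was -0.32 to 0.19 without GM-CSF and -0.27 to 0.24 with it.

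In the untreated cells labelled Irf5-/-, Itgax read 44.0, 44.5 and 51.6 CPM, and GM-CSF-treated cells of this label gave 85.0, 64.8 and 66.4 CPM. The groups did not overlap, although replicate 1 stood well above the other 2 treated libraries. The Y-linked sum was 178, 12.1 and 39.3 CPM in the untreated libraries and 163, 13.2 and 44.0 CPM in the treated ones. The log2 difference of Itgax was 0.62 ± 0.12 (adjusted p = 0.011), or 0.62 when adjusted for the Y-linked level (adjusted p = 0.0178), and Itgax was the 1 member called where 0.353% of all genes were. This call was lost without untreated replicate 1 (0.58, adjusted p = 0.115), untreated replicate 2 (0.58, adjusted p = 0.114) or GM-CSF replicate 1 (0.49, adjusted p = 0.158), and without the 3 libraries of lowest length measure (0.58, adjusted p = 0.123). Between this response of Itgax and that in WT cells the difference was -0.08 ± 0.16 (95% interval -0.40 to 0.24). The test of that difference called no member and 0% of all genes by edgeR (375 had an unadjusted p under 0.05), 0 by limma-voom and 1 by DESeq2. Itga6 had an unadjusted p of 0.0101 there, with a difference of 0.73 ± 0.26 and adjusted p = 0.987.

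Directly against WT cells, the cells labelled Irf5-/- showed no called difference in any of the 9 genes, untreated or with GM-CSF, where 0.0337% and 0.0337% of all genes were called. Itgax differed by 0.02 ± 0.12 untreated (95% interval -0.21 to 0.24) and by -0.07 ± 0.11 with GM-CSF (-0.29 to 0.16). Untreated, Itgb7 (-0.26 ± 0.11, adjusted p = 0.313) and Itgb1 (-0.21 ± 0.09, adjusted p = 0.315) had an unadjusted p under 0.05, and with GM-CSF Itga6 did (0.39 ± 0.18, adjusted p = 1). Neither DESeq2 nor limma-voom called a member in these 2 comparisons.

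In Csf2ra-/- cells the addition of GM-CSF called no gene. Untreated cells gave 25.8, 25.2 and 25.3 CPM of Itgax and treated cells 31.5, 25.9 and 26.5 CPM. The 3 treated libraries lay above the 3 untreated ones by a small margin, with 1 of them, replicate 1, apart from the rest. The log2 difference was 0.14 ± 0.12 (95% interval -0.09 to 0.37, adjusted p = 0.999). None of the 9 genes had an unadjusted p under 0.05, and 0% of all genes were called by edgeR (531 had an unadjusted p under 0.05), 0 by DESeq2 and 0 by limma-voom. The other 8 members had log2 differences between -0.08 (Itgb1) and 0.14 (Itgal). The direct test took the Itgax response in Csf2ra-/- minus that in WT cells. It gave -0.56 ± 0.16 (95% interval -0.88 to -0.24), with unadjusted p = 0.00257 and adjusted p = 0.549 (edgeR). This is not a call, and 0.0589% of all genes were called in the test. Itga6 gave 0.73 ± 0.27 in the same test (adjusted p = 0.834), and neither DESeq2 nor limma-voom called a member.

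The genotypes differed before any GM-CSF was added. Untreated, the Csf2ra-/- libraries at 25.2 to 25.8 CPM of Itgax lay far below the WT libraries at 42.2 to 49.9 CPM. The log2 difference was -0.87 ± 0.12, with adjusted p = 0.000148. Itga6, the laminin-binding chain, read 6.04, 9.07 and 7.63 CPM in untreated Csf2ra-/- cells and 16.1, 20.7 and 15.4 CPM in untreated WT cells, again without overlap, with a log2 difference of -1.17 ± 0.19 (adjusted p = 0.000715). These were 2 of 9 members called in a comparison that called 10.8% of all genes, both lower in Csf2ra-/- cells. Itga6 had few reads (49 in the shallowest case), and without the 3 libraries of lowest length measure, which leaves 1 untreated Csf2ra-/- library that is then assumed to vary like the other groups, its difference was -0.95 with adjusted p = 0.05, no longer a call, while Itgax kept its call. The Y-linked sum differed between these genotypes, at 167 to 176 CPM in untreated Csf2ra-/- cells and 173, 58.2 and 52.7 CPM in untreated WT cells. The WT library at 173 CPM held 49.9 CPM of Itgax and 16.1 CPM of Itga6, both above all 3 Csf2ra-/- libraries. Adjusted for the Y-linked level, the differences were -0.88 for Itgax (adjusted p = 0.000265) and -1.15 for Itga6 (adjusted p = 0.00178).

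The median log2 difference over the 9 members was -0.26, against 0 over all genes. The differences of single members depended on the libraries used, and 2 of the 3 untreated Csf2ra-/- libraries had the lowest length measures of all. Without the 3 libraries of lowest measure Itga4 was at 0.46, Itgam at 0.13, Itgb2 at 0.18 and Itgal at 0. The others stayed below 0 in that fit. Itgb7 was at -0.50, Selplg at -0.35 and Itgb1 at -0.15, beside Itgax at -0.89 and Itga6 at -0.95. Itgb1, which pairs with Itga4 and Itga6, differed by -0.26 ± 0.09 (adjusted p = 0.0546) and Itgb7 by -0.31 ± 0.11 (adjusted p = 0.0661). DESeq2 called both (adjusted p = 0.0278 and 0.0446). Leaving out untreated Csf2ra-/- replicate 2, the library of highest length measure, brought the members called from 2 to 4 by adding Itgal and Itgb1. Itgam (-0.22 ± 0.16), Selplg (-0.11 ± 0.11), Itga4 (-0.10 ± 0.23) and Itgb2 (0 ± 0.13) had intervals that included 0.

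With GM-CSF in both genotypes, Itgax was at 25.9 to 31.5 CPM in Csf2ra-/- and 73.2 to 79.7 CPM in WT cells. This was the largest difference of any member in any of the comparisons of 2 groups, at -1.43 ± 0.12 on the log2 scale (adjusted p = 8.82e-08). It was the 1 member called, where 3.79% of all genes were called. Itga6 read 7.67, 9.10 and 8.13 CPM against 13.3, 8.99 and 11.4 CPM, ranges that overlap, and differed by -0.44 ± 0.19 (adjusted p = 0.264). Itgb1 differed by -0.27 ± 0.09 (adjusted p = 0.103) and was called by DESeq2 (adjusted p = 0.0399) and with the length measure as a covariate (adjusted p = 0.0361). The 2 WT libraries at a Y-linked sum of 178 and 176 CPM held 73.2 and 73.3 CPM of Itgax, and its difference adjusted for the Y-linked level was -1.43 (adjusted p = 2.51e-07). The comparisons of genotype and of treatment share their WT libraries, so the Itgax values above are not independent of each other.

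**Figure D3:**
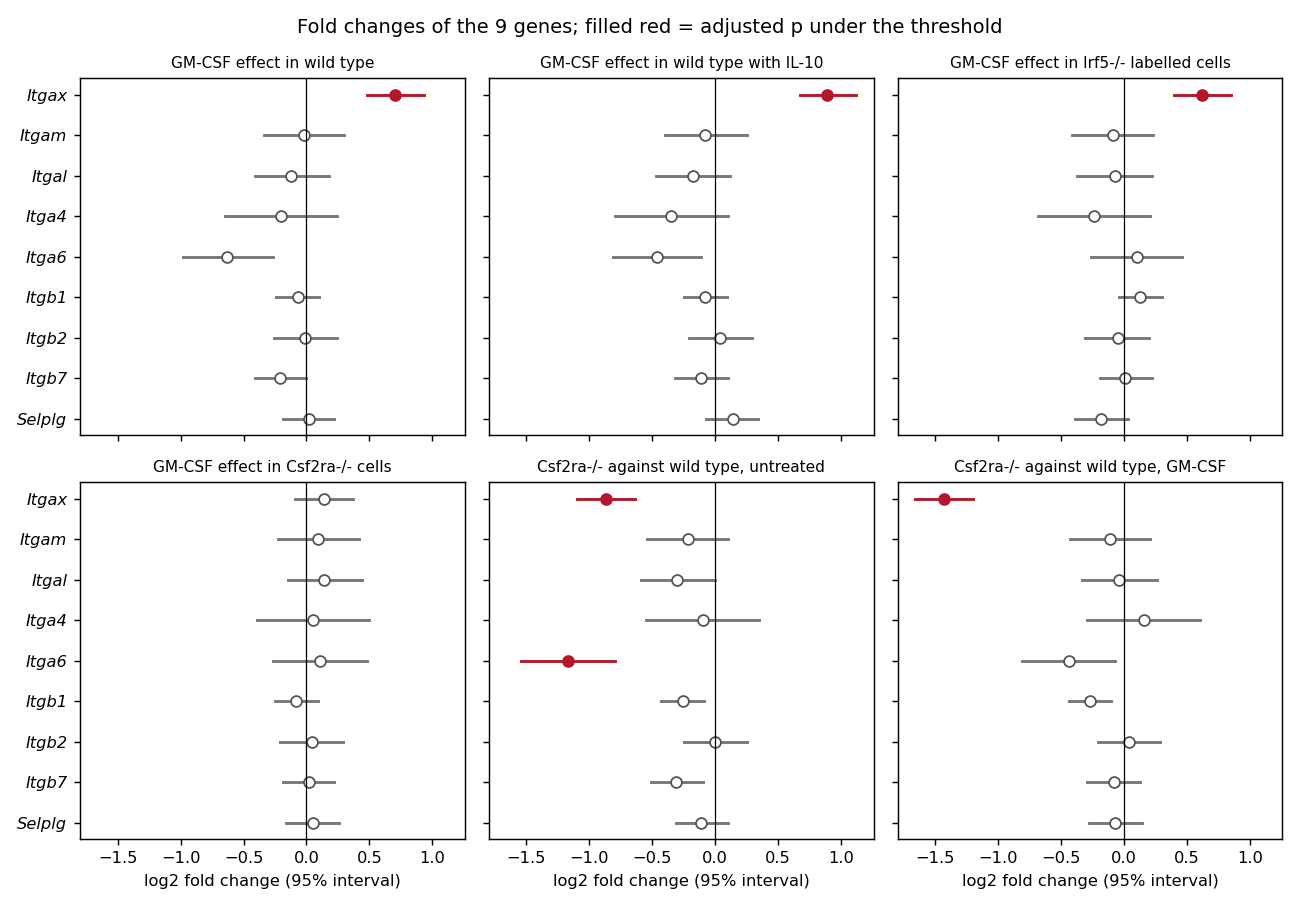
Log2 fold change (x axis) of each gene (y axis) in 6 comparisons (panels); points are edgeR estimates, lines are 95% intervals and filled red marks an adjusted p under 0.05. Itgax lies right of 0 for GM-CSF in 3 settings (0.62 to 0.89) and left of 0 for both Csf2ra-/- comparisons, and Itga6 is called in untreated Csf2ra-/- cells only.

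One test per gene of any difference among the 8 groups called 12.3% of all genes and 3 of the 9: Itgax (adjusted p = 3.16e-09), Itga6 (0.000301) and Itgb1 (0.0461). Itgb1 was not called in the fits that added the Y-linked level or the length measure. The fit with the Y-linked level called Itgax and Itga6, and that with the length measure called Itga4 and Itgb7 as well. Itgb1 ran from 236 to 251 CPM in untreated WT cells and did not overlap there with untreated Csf2ra-/- cells (178 to 219), Csf2ra-/- cells with GM-CSF (180.0 to 203) or untreated cells labelled Irf5-/- (205 to 213). Ordered by its mean, Itgax was at 75.4 ± 3.72 CPM (SD, n = 3) in WT cells with GM-CSF, 74.7 ± 9.90 with both cytokines and 72.0 ± 11.2 in cells labelled Irf5-/- with GM-CSF, and the libraries of these neighbours overlapped. Next came the untreated cells labelled Irf5-/- at 46.7 ± 4.26, untreated WT cells at 46.3 ± 3.88 and WT cells with IL-10 at 40.2 ± 2.45, which also overlapped. Csf2ra-/- cells closed the order with 27.9 ± 3.06 CPM with GM-CSF and 25.4 ± 0.339 untreated. Itga6 ranged from 17.7 ± 2.60 CPM in WT cells with IL-10 to 7.58 ± 1.51 in untreated Csf2ra-/- cells, and each group overlapped with its neighbours in the order.

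Markers of dendritic cells, of which Itgax is a defining gene, also differed between groups. The 10 markers listed summed to 124 to 131 CPM in untreated WT cells, 81.1 to 219 with GM-CSF, 123 to 151 with IL-10 and 91.6 to 246 with both. They summed to 33.4 to 88.1 CPM in untreated cells labelled Irf5-/-, 81.5 to 290.0 with GM-CSF, and 25.7 to 44.6 and 24 to 41.1 CPM in untreated and GM-CSF-treated Csf2ra-/- cells. Mgl2, a lectin of macrophages and dendritic cells, made up most of these sums at 17.8 to 247 CPM. Xcr1 was 0 in every library, and Clec9a (at most 1.24 CPM), Zbtb46 (at most 2.41) and Flt3 (at most 3.62) were low. The others reached 5.96 (Batf3), 7.2 (Ccr7), 11.1 (Ciita), 11.3 (Siglech) and 11.9 CPM (Cd209a) in their highest library. Of the 10 markers, 7 had a higher mean with GM-CSF in WT cells, and 9 had a lower mean in Csf2ra-/- than in WT cells, untreated and with GM-CSF. In each of the 3 GM-CSF groups other than Csf2ra-/-, the library with the highest sum also had the most Itgax: 219 and 79.7 CPM in WT cells, 246 and 86.1 CPM with IL-10 as well, and 290.0 and 85.0 CPM in the cells labelled Irf5-/-. The other 2 libraries of these groups did not keep that order. In WT cells, sums of 184 and 81.1 CPM stood beside 73.2 and 73.3 CPM of Itgax. With IL-10 as well, 197 and 91.6 CPM stood beside 68.8 and 69.2. In the cells labelled Irf5-/-, 119 and 81.5 CPM stood beside 64.8 and 66.4. The library of highest sum also had the most Itgax in WT cells untreated and with IL-10 alone. It did not in untreated cells labelled Irf5-/- or in either Csf2ra-/- group. Untreated cells labelled Irf5-/- had lower sums than untreated WT cells at a like mean of Itgax (46.7 and 46.3 CPM). The 18 monocyte and macrophage markers summed to 2109 to 2859 CPM over the 24 libraries, with Marco and Vsig4 at 0. In untreated cells these 18 summed to 2192 to 2784 CPM in Csf2ra-/- and 2667 to 2726 CPM in WT cells. Ly6c2 (1191 to 1915 CPM) and Adgre1 (556 to 1048) made up most of these sums. By mean, 14 of the 18 were lower and 2 higher in Csf2ra-/- than in WT cells, untreated and with GM-CSF alike. The same counts held for untreated cells labelled Irf5-/- against untreated WT cells. With GM-CSF in WT cells, 6 had a higher mean and 10 a lower one. Other marker lists also differed between Csf2ra-/- and WT cells. Of 15 neutrophil markers, 13 had a lower mean in Csf2ra-/- cells, untreated and with GM-CSF. Of the 10 eosinophil markers, 8 had a higher mean untreated and 7 with GM-CSF. In both comparisons the erythroid, lymphoid and mast-cell or basophil sums were higher in Csf2ra-/- cells, without overlap. The platelet and megakaryocyte sum was lower untreated. The part of any of these cell types in the Itgax differences was not tested.

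The remaining 7 genes varied little between groups. The highest group mean was at most 1.28 times the lowest for Itgam, Itgal, Itga4, Itgb1, Itgb2, Itgb7 and Selplg, against 2.97 times for Itgax and 2.33 times for Itga6. Itgam ran from 1312 to 2223 CPM over the 24 libraries, Itgb2 from 1457 to 1961, Itgb7 from 545 to 833 and Selplg from 506 to 748. Itgb1 ran from 178 to 253 CPM, Itgal from 112 to 181 and Itga4 from 55.9 to 118. In each of them every group overlapped with its neighbours in the order of the means.

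Within groups, several of them varied with the length measure. In untreated Csf2ra-/- cells, Itga4, with the longest transcript of the 9 (9767 bp), read 62.5 and 55.9 CPM in the 2 libraries of low length measure and 118 CPM in replicate 2. Itgam read 1436 and 1312 CPM in the same 2 libraries and 2050.0 CPM in replicate 2. The library of lowest length measure in a group was also the lowest in Itga4 in 7 of 8 groups, in Itgb1 in 6, in Itgam and Itgal in 5, and in Itga6 and Itgb2 in 4. It was the lowest in Itgax and Selplg in 2 groups and in Itgb7 in 1, the gene with the second shortest transcript of the 9 (2683 bp). With 3 libraries in a group, an unrelated gene would share its lowest library in about 1 group of 3. The counts of 4 of 8 are not far from that share, and the share over all genes was not taken. These counts did not follow transcript length alone. Itgb1 (3815 bp) had 6 and the longer Itgax (4046 bp) had 2. Over the 24 libraries Pearson's r between members, given as a description of libraries that share this measure and their groups, was 0.87 for Itgam with Itgal, 0.83 for Itgam with Itgb2 and 0.78 for Itgam with Itga4. It was 0.70 for Itga6 with Itgb1 and -0.05 for Itgax with its partner Itgb2.

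**Figure D4:**
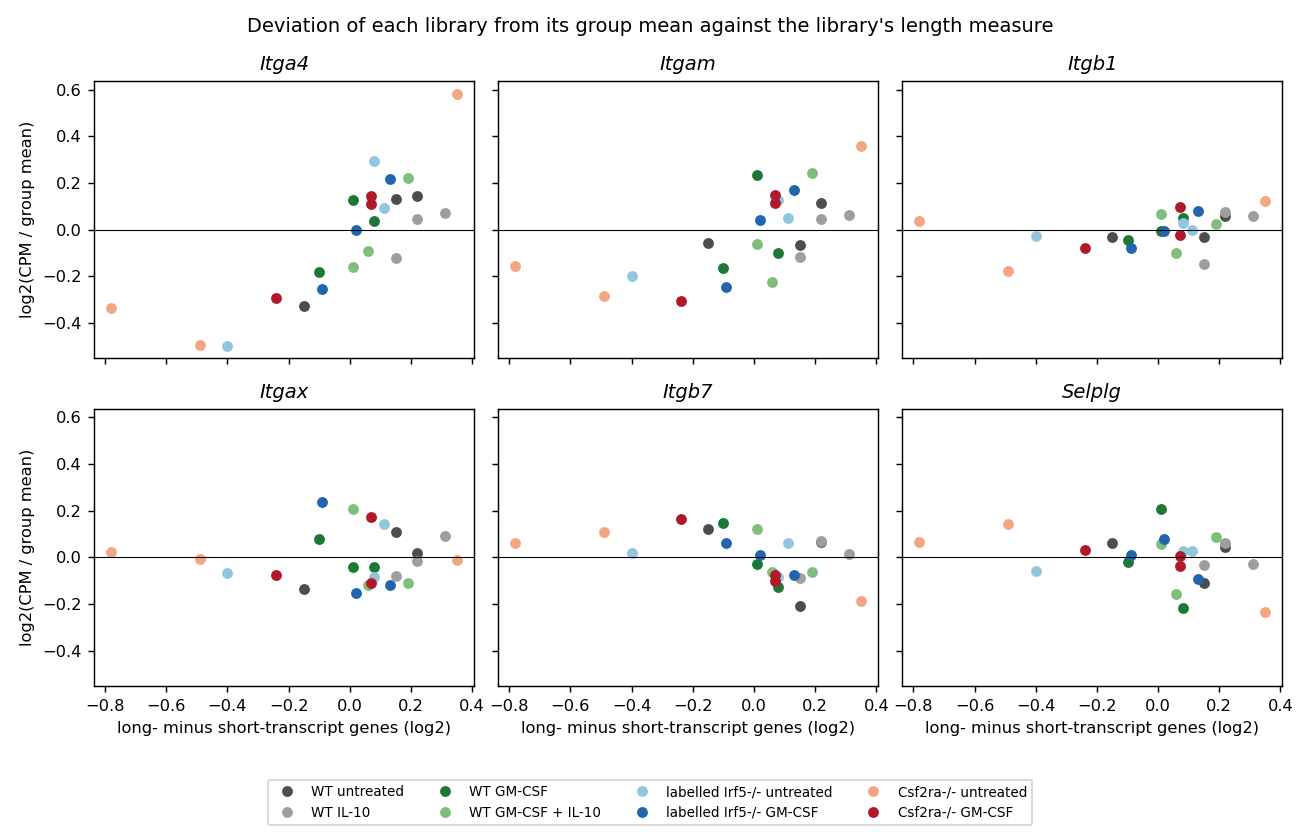
Log2 ratio of each library's CPM to its group mean (y axis) against the library's length measure (x axis, log2) for 6 genes (panels); points are the 24 libraries, coloured by group. Libraries with a low measure lie low in Itga4 and Itgam, and no such slope is seen for Itgax.

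Itgam has a limit of its own. The gene model Gm49368 (chromosome 7, 128062683 to 128128160, same strand) shares 3450 bp of exon with Itgam and was counted beside it, at 743 to 1606 CPM. The ratio of its count to that of Itgam ran from 0.517 to 0.762, and the assignment of shared reads is not given in the sources used here. Only 1574 of the 5024 bp of Itgam exon are its own. The level of Itgam is therefore uncertain, as are its place in the length-scaled order and the shares of the partners of Itgb2. Summing both models changed no call. Itga4 overlaps Cerkl on the opposite strand over 1124 bp of exon.

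The genes whose log2 levels were most like those of Itgax over the 24 libraries were Mmp12 (Pearson's r 0.97), a macrophage elastase, Nrp2 (0.95), a receptor of semaphorins, and Flt1 (0.95), a receptor of vascular endothelial growth factor. Those most like Itga6 were Mfsd6 (0.91), Rell1 (0.88) and Atp6v0d2 (0.88). These values describe a likeness over 8 shared groups and carry no test.

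Other genes of the adhesion system were read from a list of 141, of which 114 were tested: further integrin subunits, selectins and their ligands, enzymes that build selectin ligands, counter-receptors, matrix ligands, and adhesion-complex genes. GM-CSF in WT cells called 1 of 114, Spp1, which encodes the secreted integrin ligand osteopontin. Its level was 106, 64.8 and 65.8 CPM in untreated libraries and 227, 219 and 144 CPM in treated ones (log2 difference 1.31 ± 0.19, adjusted p = 0.000935). With IL-10 present, 2 of 114 were called, both higher with GM-CSF: Spp1 (1.16 ± 0.19) and Lama5 (0.98 ± 0.22), a laminin chain. In the cells labelled Irf5-/- the 2 called were Spp1 (0.88 ± 0.19) and Cdh1 (2.20 ± 0.42), which encodes E-cadherin. Cdh1 stood at 5.28, 5.24 and 6.34 CPM in the untreated libraries and at 42.9, 21.0 and 14.7 CPM in the treated ones, which spread widely. In Csf2ra-/- cells GM-CSF called 0 of 114, and the difference of the Spp1 response from that in WT cells was the 1 called in that test (-1.49 ± 0.27, adjusted p = 0.03).

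Between untreated Csf2ra-/- and WT cells, 17 of 114 adhesion genes were called (14.9%, against 10.8% of all genes), 5 higher and 12 lower in Csf2ra-/- cells. Alcam, an adhesion molecule that binds CD6, was lower (-1.19 ± 0.17), at 6.91, 6.66 and 6.21 CPM against 14.9, 17.7 and 12.4. Thbs1, the matrix protein thrombospondin-1, was lower as well (-0.88 ± 0.16), as was Gcnt1 (-0.48 ± 0.12), an enzyme that builds core O-glycans of PSGL-1. Vcam1, the counter-receptor of Itga4 with Itgb1, was higher (0.85 ± 0.22), at 334, 281 and 178 CPM against 175, 137 and 128. With GM-CSF in both genotypes 9 of 114 were called (7.89%, against 3.79% of all genes), 1 higher and 8 lower. Alcam (-1.29 ± 0.17), Spp1 (-1.43 ± 0.19) and Cdh1 (-2.78 ± 0.42) were among the lower ones. The list of selectins and other selectin ligands, to which Selplg belongs by function, held no called gene among its 7 tested in either genotype comparison, and IL-10 and the Irf5-/- label called 0 of the 114.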

How the data were processed

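Polyadenylated RNA of 24 cultures was sequenced from strand-specific libraries. The submitters' processing notes name STAR, featureCounts and the build GRCm38.p6. The deposited values are whole-number counts per Ensembl gene and library, not normalized by the authors. The sources used here do not give their versions, the strand setting or the treatment of reads shared by 2 genes.

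Symbols, positions and exon lengths came from GENCODE annotation of GRCm38, and 111 of 25746 genes had no symbol. Counts were tested with edgeR 4.0.16 (R 4.3.3): TMM factors, filterByExpr, 1 model of 8 group means over 24 libraries, the robust quasi-likelihood F-test and Benjamini-Hochberg adjustment over 11885 genes with a threshold of 0.05. SE is the log2 difference divided by the square root of F, and 95% intervals are the normal ones from it. The common biological coefficient of variation was 14.1%. CPM use TMM-scaled library sizes. The length measure used 865 genes in each class out of 8647 with at least 5 CPM in every library, with deviations taken from the mean over libraries. The fit was tested on simulated counts.

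Groups came from the labels, and replicate numbers follow the order of deposit and pair nothing. The 9 genes, the marker lists and the adhesion list were chosen with earlier results of these data known. All 9 are named throughout, with the adhesion genes called at a mean of at least 5 CPM (the 10 smallest p-values per comparison at most) and the 3 genes most like each member called in a comparison of 2 groups. Alternatives were DESeq2 1.42.0, limma-voom (limma 3.58.1), DESeq2-type size factors, no filter or 5 CPM in 3 libraries, the compared groups alone, the summed level of 4 Y-linked genes as a covariate, and each library left out. Chosen after seeing the data were the length measure as a covariate, leaving out its 3 lowest libraries, and summing Itgam with Gm49368.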

Additional observations from a re-analysis of the deposited data

How the results depend on the processing

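The count of members called stayed within 1.5 times its value in 116 cases that left out 1 library and moved further in 4, and the other settings gave 134 such cases and 6 that moved. These cases include tests with 0 members called in the main fit, such as GM-CSF in Csf2ra-/- cells. A count within the bound can also hold different genes. No call of a member reversed. For untreated Csf2ra-/- against WT cells (2 members called), DESeq2 called 4, the fit without the 3 libraries of lowest length measure called 1, and leaving out single libraries gave 2 to 4, the latter without untreated Csf2ra-/- replicate 2. For the same genotypes with GM-CSF (1 member), DESeq2 and the fit with the length measure as a covariate each called 2. For GM-CSF in the cells labelled Irf5-/- (1 member), the fit without those 3 libraries called 0, and leaving out single libraries gave 0 to 1, with 0 without untreated replicate 1, untreated replicate 2 or GM-CSF replicate 1. The test of any difference among groups (3 members) called 1, Itgax, when restricted to the 4 WT groups. The cause of these shifts was not tested. In the same settings Itgb7 was called in untreated Csf2ra-/- cells with the length measure as a covariate (-0.42, adjusted p = 0.00903, edgeR) and without untreated WT replicate 1 (-0.40, adjusted p = 0.0275), and Itgb1 with the stricter filter (-0.26, adjusted p = 0.0467).

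The Itgax difference for GM-CSF in WT cells ran from 0.64 to 0.76 over 16 alternative settings and was called in 16, and that with IL-10 from 0.78 to 0.95 and was called in 16. Untreated Csf2ra-/- against WT cells gave -0.92 to -0.81 and GM-CSF-treated ones -1.52 to -1.38, called in 16 of 16 each. No paired analysis was run, because the labels pair no libraries. The Y-linked sums of the cells labelled Irf5-/- resembled each other between treatments. A pairing by these sums was not fitted, and the test of GM-CSF in these cells ignores any such pairing. Itga6, at 49 to 297 counts per library, had the fewest counts of the 9 genes, which limits the precision of its values.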

Other observations

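Itga2b, which encodes the alpha-IIb chain known from platelets, is 1 of the 18 further integrin subunits listed and was chosen for mention after its values were seen. It read 893 to 1541 CPM (7436 to 25325 counts) over the 24 libraries, or 164 to 282 CPM per kb of exon, with its gene on chromosome 11 between 102453297 and 102470122 (GRCm38). Its partner Itgb3 read 160.0 to 309 CPM, or 27.2 to 52.3 CPM per kb. The 7 platelet and megakaryocyte markers summed to 58.9 to 175 CPM in the same libraries. Of these, Ppbp was the most abundant in its highest library, at 17.1 to 135 CPM over the libraries, and Gp1bb reached 28.0 CPM. Pf4, a platelet chemokine, read 0.707 to 13.0 CPM. Gp9 reached 12.3, Gp5 7.61 and Gp1ba 5.3 CPM in their highest library, and Gp6, the platelet collagen receptor, read at most 0.823 CPM. Itga2b was higher in Csf2ra-/- than in WT cells, by 0.42 ± 0.10 on the log2 scale untreated (adjusted p = 0.0146, edgeR) and by 0.38 ± 0.10 with GM-CSF (adjusted p = 0.0449).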
